A study of Mus musculus with 6 samples.

Results

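The 10 genes described here encode matrix proteins of tendon and cartilage (*Chad*, *Fmod*, *Tnmd*, *Comp*, *Thbs4*, *Cilp* and *Cilp2*) and transcription factors of the tendon and cartilage lineages (*Scx*, *Mkx* and *Sox9*), and all 10 were found by symbol among the 28987 genes of the deposited RNA-seq table. They were chosen by their roles, after the log2 differences of *Cilp2*, *Fmod*, *Chad* and *Tnmd* between these same libraries were known, so the differences between the groups are given as a description, without a test. The libraries were made from EGFP+ cells sorted from mouse ventricles 4 weeks after transverse aortic constriction (TAC), surgery that narrows the aorta and so loads the heart with pressure. All mice carried a tamoxifen-activated Cre (MerCreMer) in the *Postn* locus and the Cre-dependent R26eGFP reporter. The 3 libraries labelled Hsp47-deleted came from mice that were also *Hsp47* flox/flox, and the 3 control libraries from mice without the floxed alleles. The labels give surgery at 8 to 10 weeks of age and tamoxifen at 100 mg/kg by injection with chow at 40 mg/kg, whereas the study's methods give other doses and name male mice on a C57BL/6 background. Because the Cre is driven from *Postn*, the sort was aimed at cells that had switched on this gene of activated fibroblasts. Markers of other cells were also found in the libraries and are given below. Neither source says whether each library came from 1 mouse, so the spread between replicates may be in part technical.

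Tendon and cartilage are built by cells that lay down collagen fibrils and a set of smaller proteins that bind these fibrils, regulate their width or tie them to the cell. Sox9 directs the cartilage program, and scleraxis (Scx) and Mohawk (Mkx) direct the tendon program. Several of the matrix genes are also expressed by fibroblasts of other tissues, the heart valves and injured myocardium among them. Hsp47 is a chaperone of procollagen in the endoplasmic reticulum, and the comparison asks how this matrix program stood in myofibroblasts with and without a targeted *Hsp47* gene.

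Libraries are named by group and replicate number (control 3, Hsp47-deleted 1). The labels place control replicates 3 and 4 in 1 sequencing run (the first run) and control replicate 2 with all 3 libraries labelled Hsp47-deleted in another (the second run). The deposited values are log2(value + 1), and with the log undone they sum to between 690499 and 855404 per library in a linear unit that the table does not name. These sums are not read counts, so the depth is unknown, and levels of different genes are not compared with each other. *Serpinh1*, the gene for Hsp47, was at 76.9, 67.4 and 192.8 in the linear unit in controls 3, 4 and 2, against 116.0, 100.5 and 99.9 in the libraries labelled Hsp47-deleted 1, 2 and 3. Against all 3 controls together the targeted transcript showed no fall (log2 difference 0.072, standard error 0.43, limma, adjusted p = 0.947), and against control replicate 2 alone the difference was -0.87, so each group keeps the name its label gives. By Western blot of sorted EGFP+ cells the study reports efficient loss of the Hsp47 protein, which was not measured here. The loxP sites target a single exon, and a value per gene does not separate exons. Over the 15109 genes that averaged 1 or more on the linear scale across all libraries, the median log2 difference between the groups was 0.355 (0.29 against control replicate 2 alone), and differences of the members are read beside this shift.

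To show the sequence at the start of the genes that differed most, the promoters of the 4 members with a log2 difference above 2 and an entry in the RefSeq promoter table (build GRCm38.p6) are printed here. Each runs from 250 bases before to 50 bases after the RefSeq start site, on the gene's own strand. Capitals mark E-boxes, the letters CANNTG, the class of site that scleraxis and related basic helix-loop-helix factors bind. The window of *Chad* is chr11:94564797-94565096 on the plus strand, that of *Fmod* chr1:134037004-134037303 on the plus strand, that of *Tnmd* chrX:133850758-133851057 on the plus strand and that of *Cilp2* chr8:69887343-69887642 on the minus strand. The RefSeq start sites of *Tnmd* and *Cilp2* differ from the GENCODE starts used for positions below. The *Cilp2* window lies wholly inside its GENCODE gene (69880369 to 69887687), downstream of that start.
Chad: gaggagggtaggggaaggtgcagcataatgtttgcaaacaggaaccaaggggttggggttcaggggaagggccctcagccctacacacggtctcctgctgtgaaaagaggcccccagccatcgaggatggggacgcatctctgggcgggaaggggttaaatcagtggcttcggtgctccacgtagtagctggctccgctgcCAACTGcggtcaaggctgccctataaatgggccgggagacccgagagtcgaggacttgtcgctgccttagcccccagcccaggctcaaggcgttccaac
Fmod: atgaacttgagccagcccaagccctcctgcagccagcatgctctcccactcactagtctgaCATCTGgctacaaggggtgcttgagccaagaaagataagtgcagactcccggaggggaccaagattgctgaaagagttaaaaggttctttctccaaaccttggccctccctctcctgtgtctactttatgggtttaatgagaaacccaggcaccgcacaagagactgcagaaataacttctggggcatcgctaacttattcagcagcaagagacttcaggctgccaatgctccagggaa
Tnmd: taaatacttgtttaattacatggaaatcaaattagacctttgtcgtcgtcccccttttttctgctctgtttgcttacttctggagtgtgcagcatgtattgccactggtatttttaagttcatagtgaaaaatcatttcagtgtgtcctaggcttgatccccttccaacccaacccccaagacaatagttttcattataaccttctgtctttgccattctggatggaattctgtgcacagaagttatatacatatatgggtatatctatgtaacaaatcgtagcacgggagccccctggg
Cilp2: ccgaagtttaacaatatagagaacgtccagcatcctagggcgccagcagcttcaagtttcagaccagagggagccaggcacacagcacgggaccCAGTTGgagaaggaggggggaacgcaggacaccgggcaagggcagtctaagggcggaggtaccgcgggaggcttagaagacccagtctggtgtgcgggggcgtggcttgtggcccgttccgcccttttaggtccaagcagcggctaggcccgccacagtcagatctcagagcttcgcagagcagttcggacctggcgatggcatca

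Promoters of 6 of the 10 members were in the table (*Chad*, *Fmod*, *Tnmd*, *Cilp2*, *Cilp* and *Thbs4*). At least 1 E-box was present in 5 of these 6, against 72.3% of all 32851 promoters in the table, with 3 in *Cilp*, 2 in *Thbs4* and none in the *Tnmd* window. The E-box of *Fmod*, 189 bases before the start site, read CAGATG on the opposite strand, the only such case in the 6 promoters. This form is itself a CANNTG match and was found in 17.2% of all promoters. The letters TATAAA on either strand, a TATA box, occurred in *Chad* alone, 28 bases before the start site, and in 13.6% of all promoters. ACAAT on either strand, the core that Sox factors bind, occurred in *Cilp2* and *Tnmd* and in 31.0% of all promoters. These matches describe the letters in the windows and were not tested against the expression values.

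Of the 10 members, 9 were higher by more than 2-fold in mean linear value in the libraries labelled Hsp47-deleted, and *Mkx* was the exception. At 8 members the groups did not overlap and those labelled Hsp47-deleted were higher, beside 18.3% of all tested genes in that direction, and at none were they lower without overlap (1.5% of tested genes). The exceptions were *Scx* and *Mkx*, whose groups overlapped. Since these libraries were in view when the genes were chosen, nothing is read from this count. The median log2 difference of all 10 was 1.93, and 1.81 against control replicate 2 alone. Per library, the median deviation of the 10 genes from their control means was -0.16, -0.16 and 0.29 in controls 3, 4 and 2, against 1.82, 1.94 and 1.98 in the libraries labelled Hsp47-deleted 1, 2 and 3. The 3 libraries labelled Hsp47-deleted thus lay close together, and control replicate 2 lay above the other controls. A higher level in sorted bulk cells can come from more cells of a kind or from more RNA per cell, and these cannot be told apart here. In the second run alone, all 3 libraries labelled Hsp47-deleted lay above control replicate 2 at 9 members, *Scx* being the exception, beside 46.7% of all tested genes. The 9 include *Mkx*, which was below the filter and so is not among the tested genes.

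**Figure D1:**
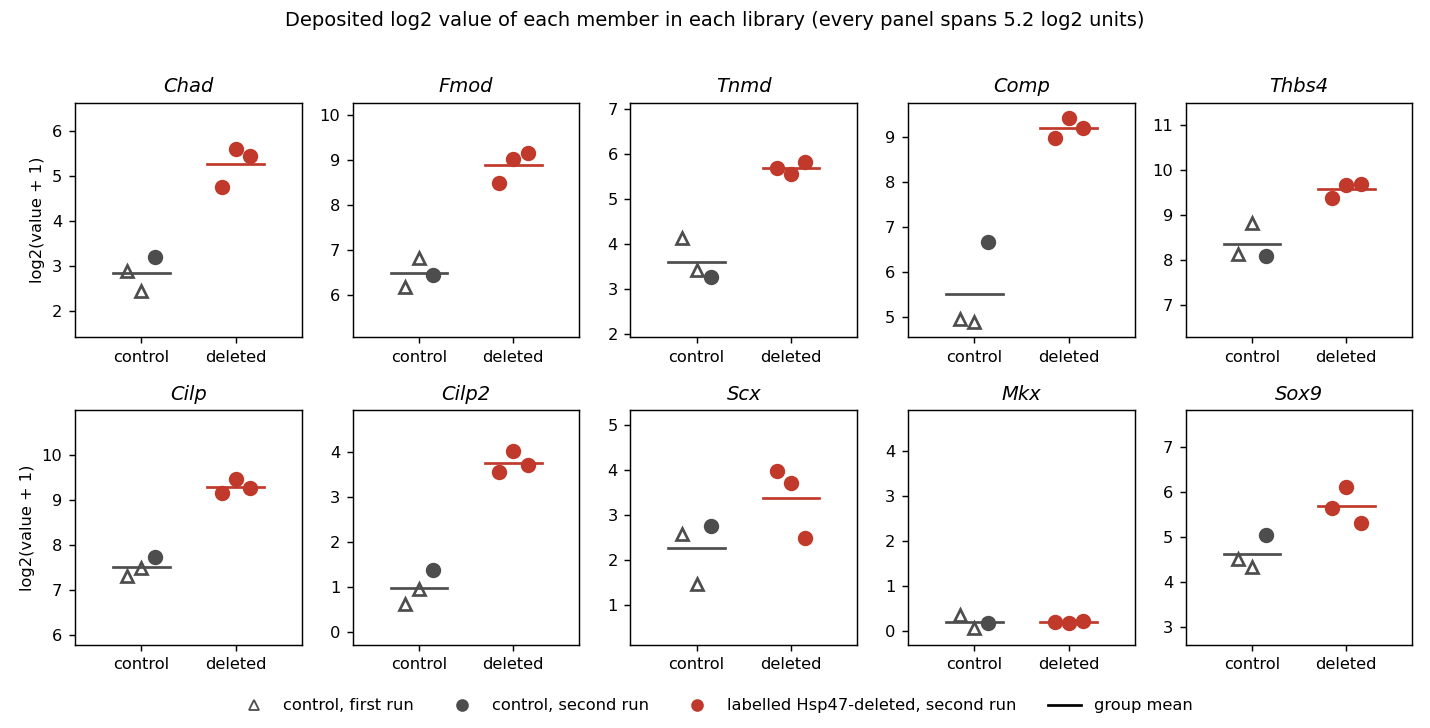
Deposited log2(value + 1) of the 10 members in each of the 6 libraries (y axis), by group (x axis). Triangles are the controls of the first run, filled points are libraries of the second run and lines are group means (n = 3); the groups overlap at *Scx* and *Mkx* only.

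Among the members, *Chad* and *Fmod* encode leucine-rich repeat proteins that bind collagen. Chondroadherin, the product of *Chad* (ENSMUSG00000039084, 4 exons on chromosome 11 of GRCm38 from 94565047 to 94569127), also binds cells through integrins. *Chad* was at 6.42, 4.45 and 8.24 in the linear unit in controls 3, 4 and 2, against 26.3, 47.9 and 42.6 in the libraries labelled Hsp47-deleted 1, 2 and 3. On the log2 scale controls averaged 2.85 ± 0.38 (SD, n = 3) and the others 5.28 ± 0.45 (SD, n = 3), which differ by 2.43, or 6.11-fold between mean linear values. The lowest library labelled Hsp47-deleted lay 1.56 log2 units above the highest control. *Chad* lies inside *Acsf2*, a gene for a mitochondrial enzyme on the opposite strand, with 0 exonic bases in common. *Acsf2* itself was at 3.43, 1.64 and 6.86 in controls 3, 4 and 2, against 6.40, 10.1 and 4.29 in the libraries labelled Hsp47-deleted 1, 2 and 3, so that its groups overlapped where those of *Chad* did not.

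Fibromodulin, the product of *Fmod* (ENSMUSG00000041559, 3 exons in its longest transcript, chromosome 1 from 134037254 to 134048277), is a keratan sulfate proteoglycan that controls the width of collagen fibrils. *Fmod* was at 71.9, 112.2 and 86.2 in the linear unit in controls 3, 4 and 2, against 361.3, 524.2 and 573.2 in the libraries labelled Hsp47-deleted 1, 2 and 3. The group means in the linear unit were 90.1 and 486.0, a 5.40-fold ratio, with no overlap. Control replicate 2 stood between the other controls, and the log2 difference was 2.42 against all controls and 2.45 against control replicate 2.

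Tenomodulin, the product of *Tnmd* (ENSMUSG00000031250, 7 exons, chromosome X from 133850980 to 133865577), is a membrane glycoprotein of tendon cells and a late marker of their differentiation. *Tnmd* was at 16.8, 9.73 and 8.64 in the linear unit in controls 3, 4 and 2, against 51.1, 46.1 and 55.6 in the libraries labelled Hsp47-deleted 1, 2 and 3. Its libraries labelled Hsp47-deleted had the smallest spread of log2 values among the 5 members with a difference above 2, with a mean of 5.70 ± 0.13 (SD, n = 3) against 3.62 ± 0.47 (SD, n = 3) in controls. The log2 difference was 2.08, and it was larger against control replicate 2, at 2.43, since that library held the lowest of the control values.

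*Comp* and *Thbs4* encode the pentameric thrombospondins COMP (thrombospondin-5) and thrombospondin-4, calcium-binding glycoproteins that help collagen fibrils assemble. *Comp* (ENSMUSG00000031849, 19 exons in its longest transcript, chromosome 8 from 70373558 to 70382066) had the largest difference of the 10 members. It was at 29.9, 28.4 and 100.7 in the linear unit in controls 3, 4 and 2, against 500.0, 686.7 and 584.5 in the libraries labelled Hsp47-deleted 1, 2 and 3. In log2 units controls averaged 5.50 ± 1.01 (SD, n = 3) and the others 9.20 ± 0.23 (SD, n = 3), which differ by 3.70. Only 44 of the 15109 tested genes had a larger log2 difference. Control replicate 2 lay 1.75 log2 units above the mean of the other controls, the widest such gap among the members, and against that library alone the difference was 2.53, or 5.86-fold in place of 11.1-fold. The gap from the highest control to the lowest library labelled Hsp47-deleted was 2.30 log2 units.

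*Thbs4* (ENSMUSG00000021702, 22 exons in its longest transcript, chromosome 13 from 92751590 to 92794818) was at 280.4, 451.2 and 269.9 in the linear unit in controls 3, 4 and 2, against 666.3, 805.5 and 825.7 in the libraries labelled Hsp47-deleted 1, 2 and 3. The groups did not overlap. The log2 difference was 1.23, with 2.29-fold between mean linear values, and 1.49 against control replicate 2. The pair thus differed in how far they stood from their controls, *Comp* by 3.70 and *Thbs4* by 1.23 log2 units against all controls, and by 2.53 and 1.49 within the second run.

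*Cilp* and *Cilp2* encode the cartilage intermediate layer proteins, secreted glycoproteins of cartilage, of which CILP is also known from injured heart and binds TGF-β. *Cilp* (ENSMUSG00000042254, 10 exons in its longest transcript, chromosome 9 from 65265180 to 65280605) was at 157.5, 178.3 and 211.9 in the linear unit in controls 3, 4 and 2, against 566.0, 701.1 and 612.2 in the libraries labelled Hsp47-deleted 1, 2 and 3. The spread within each group was small beside the log2 difference of 1.78, with means of 7.51 ± 0.21 (SD, n = 3) and 9.29 ± 0.16 (SD, n = 3). Within the second run the difference was 1.55.

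*Cilp2* (ENSMUSG00000044006, 8 exons, chromosome 8 from 69880369 to 69887687) was near the lower limit of what was tested in the controls, at 0.524, 0.920 and 1.56 in the linear unit in replicates 3, 4 and 2. It was at 10.6, 15.2 and 11.9 in Hsp47-deleted replicates 1, 2 and 3, so the ratio of mean linear values, 12.6-fold, rests on control values close to 1. The log2 difference of 2.78 depended on the pseudocount for the same reason, at 3.62 with a pseudocount of 0.1 and 1.55 with a pseudocount of 5. Its groups were 2.18 log2 units apart at their nearest libraries. *Cilp2* and *Comp* lie 485870 bases apart on chromosome 8, with 26 annotated genes between them.

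The 3 transcription factors had the smallest log2 differences of the 10 members against all controls, but this order did not hold on every scale. In mean linear value *Scx* (2.53-fold) exceeded *Thbs4* (2.29-fold), and with quantile normalization the log2 differences of *Scx* (0.75) and *Sox9* (0.70) exceeded that of *Thbs4* (0.65). Without control replicate 2 they were 1.37, 1.26 and 1.10 in the same order. *Sox9* (ENSMUSG00000000567, 3 exons, chromosome 11 from 112782224 to 112787760) was at 21.9, 19.0 and 32.1 in the linear unit in controls 3, 4 and 2, against 49.1, 67.7 and 38.5 in the libraries labelled Hsp47-deleted 1, 2 and 3. The groups did not overlap, but the nearest libraries, control replicate 2 and Hsp47-deleted replicate 3, were 0.26 log2 units apart. The log2 difference was 1.05 against all controls and 0.64 against control replicate 2.

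*Scx* (ENSMUSG00000034161, chromosome 15 from 76457452 to 76459458) was at 4.93, 1.74 and 5.69 in the linear unit in controls 3, 4 and 2, against 14.8, 12.0 and 4.56 in the libraries labelled Hsp47-deleted 1, 2 and 3. Hsp47-deleted replicate 3 lay below control replicates 3 and 2, while replicates 1 and 2 lay above every control. The log2 difference was 1.13, with an SD of 0.70 in controls and 0.80 in the libraries labelled Hsp47-deleted (n = 3 each), and it was 0.64 against control replicate 2. It ranged from 0.73 to 1.58 when each library was left out in turn, with the highest value without Hsp47-deleted replicate 3. *Scx* lies inside *Bop1*, a gene for a ribosome assembly factor on the opposite strand, with 0 exonic bases in common. *Bop1* was at 3.18, 6.18 and 5.93 in controls 3, 4 and 2, against 6.61, 6.38 and 14.6 in the libraries labelled Hsp47-deleted 1, 2 and 3. It was highest in the library in which *Scx* was lowest among those labelled Hsp47-deleted. The groups of *Bop1* did not overlap, where those of *Scx* did. Its log2 difference was 0.69, and its nearest libraries were 0.038 log2 units apart.

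*Mkx* (ENSMUSG00000061013) was the only member under the filter. It was at 0.288, 0.0479 and 0.123 in the linear unit in controls 3, 4 and 2, against 0.149, 0.140 and 0.164 in the libraries labelled Hsp47-deleted 1, 2 and 3. All values were below 1, the groups overlapped, and no difference in either direction was detectable at these levels. A second annotated gene, *AC148004.2*, shares 201 of the 4095 exonic bases of *Mkx* (4.91%). The tendon markers *Tnmd* and *Scx* were thus above the filter in both groups while *Mkx* was not.

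**Figure D2:**
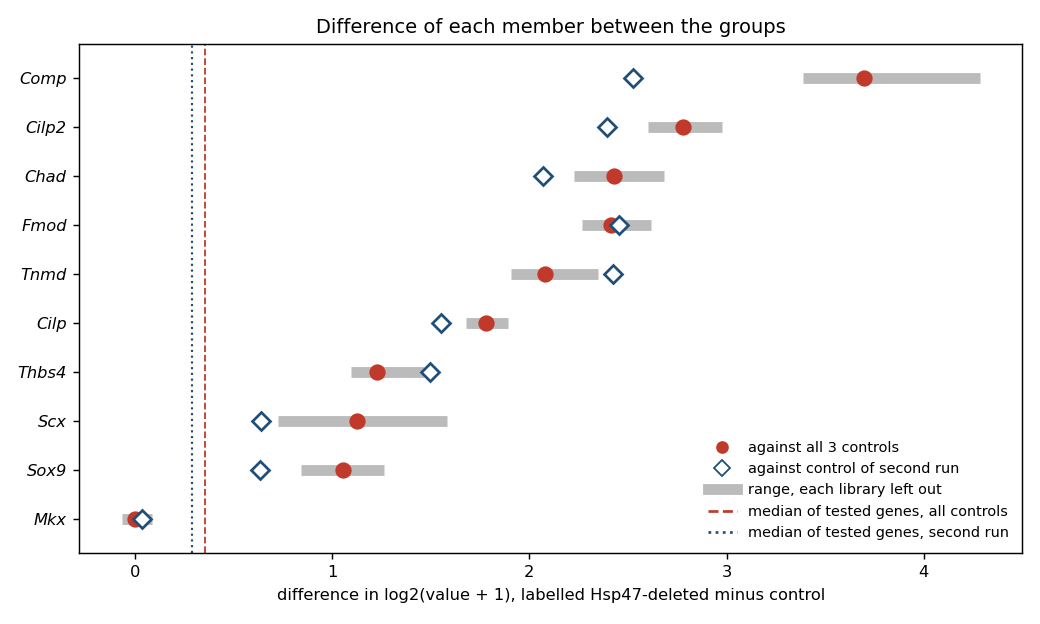
Difference in log2(value + 1) between the libraries labelled Hsp47-deleted and the controls (x axis) for each member (y axis). Points are differences against all 3 controls, diamonds those against the control of the second run, bars the range when each library is left out and vertical lines the medians of all tested genes; *Comp* moved most between the controls used, from 3.70 to 2.53.

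Centring every library on its median removed the upward shift of all genes and left the 9 tested members higher, with log2 differences from 0.64 (*Sox9*) to 3.28 (*Comp*), whereas *Mkx* went to -0.41. Quantile normalization gave from 0.65 (*Thbs4*) to 3.22 (*Comp*) for these 9. The members did not follow 1 order among the libraries labelled Hsp47-deleted. Replicate 1 held the lowest value at 6 members and the highest at 1 (*Scx*), whereas replicate 3 was lowest at *Scx* and *Sox9* and highest at 4 members.

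The genes with the profiles most like 4 of the members were found by the root mean square difference of gene-centered log2 values over the 6 libraries, as a description. Nearest to *Chad* was *Col22a1* (0.237 log2 units), a collagen of tissue junctions such as that of muscle and tendon, followed by the predicted gene *Gm14251* (0.270) and *Gabra3* (0.318), which encodes a GABA receptor subunit. Nearest to *Cilp2* were *1600010F14Rik* (0.136), *Gabra3* (0.247) and the chemokine gene *Cx3cl1* (0.271). For *Fmod* the nearest were *Gm13433* (0.244), *Gm10093* (0.278) and *1600010F14Rik* (0.284), and for *Tnmd* they were *Gm16042* (0.207), *Gm13044* (0.244) and *Ang* (0.272), which encodes the ribonuclease angiogenin. With 6 libraries in 2 groups many genes can share such a profile, and predicted genes may share reads with copies elsewhere in the genome.

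The wider tendon and cartilage program was examined with 63 further genes in 5 lists, none of them a member, of which 43 passed the filter. None of the 43 had an adjusted limma p under 0.05, against 0.232% of all tested genes that were called higher and 0.0132% called lower. At an unadjusted limma p under 0.05, 14 were higher and 0 were lower, beside 14.5% of all tested genes higher and 0.755% lower. The groups did not overlap at 13 of the 43, and the libraries labelled Hsp47-deleted were higher at each, beside 18.3% of all tested genes in that direction and 1.5% in the other. The median log2 difference was 0.48, and 0.55 against control replicate 2 alone, next to 0.355 and 0.29 for all tested genes. Without control replicate 2, 11 of the 43 were called, all higher, but 2768 genes were then called in all, and run and label coincide in that comparison.

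In the cartilage matrix list 3 of 11 tested genes were higher at an unadjusted p under 0.05, beside 14.5% of all tested genes. The smallest p-values belonged to *Cytl1*, a secreted factor of cartilage (log2 difference 1.79, standard error 0.49, limma, adjusted p = 0.265), and *Col11a2*, a chain of the minor fibrillar collagen of cartilage (1.59, standard error 0.49, limma, adjusted p = 0.282). *Cytl1* was at 34.7, 30.8 and 109.4 in the linear unit in controls 3, 4 and 2, against 200.2, 174.9 and 145.7 in the libraries labelled Hsp47-deleted 1, 2 and 3. As at *Comp*, the control of the second run was the highest, and against it the log2 difference was 0.65. The 9 chondrocyte markers, all of them also in this list, were named for their known role in cartilage and not by their p, and 6 of them were below the filter. *Matn1* was listed at 0 in every library, *Col9a1* reached at most 0.0185 in the linear unit, *Acan*, the aggregating proteoglycan of cartilage, reached 1.22 and *Col2a1*, its main collagen, reached 2.89, in Hsp47-deleted replicate 3. *Hapln1*, a link protein of cartilage, reached 1.24 in the same library. *Matn3* lay above the controls in all libraries labelled Hsp47-deleted, from 0.404 to 0.576 against at most 0.123. The markers above the filter were *Col11a2*, which reached 9.92, *Snorc*, from 1.45 to 3.91, and *Cnmd*, from 4.53 to 14.2, and the groups overlapped at the last pair.

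In the tendon and ligament matrix list 4 of 11 tested genes were higher at an unadjusted p under 0.05. The share of all tested genes was 14.5%. *Col12a1*, which encodes a collagen on the surface of fibrils, was at 40.8, 49.7 and 35.2 in controls 3, 4 and 2, against 99.7, 132.5 and 158.0 in the libraries labelled Hsp47-deleted 1, 2 and 3 (log2 difference 1.60, standard error 0.30, limma, adjusted p = 0.12). *Prelp*, a leucine-rich repeat protein of the same family as fibromodulin, was at 509.7, 574.9 and 573.4 in those controls, and at 1319, 1869 and 1203 in the libraries labelled Hsp47-deleted (log2 difference 1.38, standard error 0.32, limma, adjusted p = 0.193). Neither gene passed after adjustment, although the groups did not overlap at either. The abundant proteoglycans *Lum* and *Bgn* had log2 differences of -0.11 (standard error 0.29) and 0.055 (standard error 0.36), within the error of the fit. Of the 11 tested genes 5 were higher without overlap and 0 lower, beside 18.3% and 1.5% of all tested genes. The 5 include *Dcn*, *Aspn* and *Ogn*, with log2 differences of 0.49, 0.98 and 0.98 (standard errors 0.36, 0.28 and 0.29). *Lum*, *Bgn*, *Dcn*, *Aspn* and *Ogn* were chosen after their values were seen.

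Of the other thrombospondins, *Thbs2* (log2 difference 1.23, standard error 0.35, limma, adjusted p = 0.274) and *Thbs3* (1.03, standard error 0.32, limma, adjusted p = 0.282) lay above the controls in all 3 libraries labelled Hsp47-deleted, and neither passed after adjustment. *Thbs3*, like *Comp* and *Thbs4*, belongs to the pentameric branch of the family, whereas *Thbs2* and *Thbs1* form trimers. *Thbs1* overlapped between the groups, with the lowest value of the 6 libraries, 206.6 in the linear unit, in control replicate 2, and was named after its values were seen.

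Among 8 tested skeletal and tendon transcription factors, 2 were higher at an unadjusted p under 0.05, beside 14.5% of all tested genes. Both are zinc finger factors that respond rapidly to stimuli and take part in tendon development. *Egr2* had a log2 difference of 1.98 (standard error 0.48, limma, adjusted p = 0.224) without overlap, and *Egr1* one of 1.98 (standard error 0.84, limma, adjusted p = 0.324) with overlap. For *Egr1* control replicate 2 was at 1883 in the linear unit against 275.0 and 268.8 in replicates 3 and 4, and the difference from it alone was 0.12. *Sox5* and *Sox6*, the partners of *Sox9* in cartilage, differed by 0.099 (standard error 0.35) and 0.075 (standard error 0.36), and *Runx2*, a factor of bone formation, by 0.48 (standard error 0.40); these 3 were chosen after their values were seen.

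Of 10 tested genes for signals to these lineages, 3 were higher at an unadjusted p under 0.05, beside 14.5% of all tested genes. *Tgfb1*, which encodes a TGF-β ligand, was at 15.8, 15.7 and 28.8 in controls 3, 4 and 2, against 56.4, 57.0 and 42.4 in the libraries labelled Hsp47-deleted 1, 2 and 3 (log2 difference 1.37, standard error 0.34, limma, adjusted p = 0.227). *Gdf6*, a ligand of the BMP family that acts in joint and tendon formation, had a log2 difference of 0.95 (standard error 0.35, limma, adjusted p = 0.305). The receptors *Tgfbr1*, *Tgfbr2* and *Tgfbr3* differed by 0.49, -0.053 and -0.024, with standard errors of 0.29, 0.28 and 0.28. They were named after their values were seen.

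**Figure D3:**
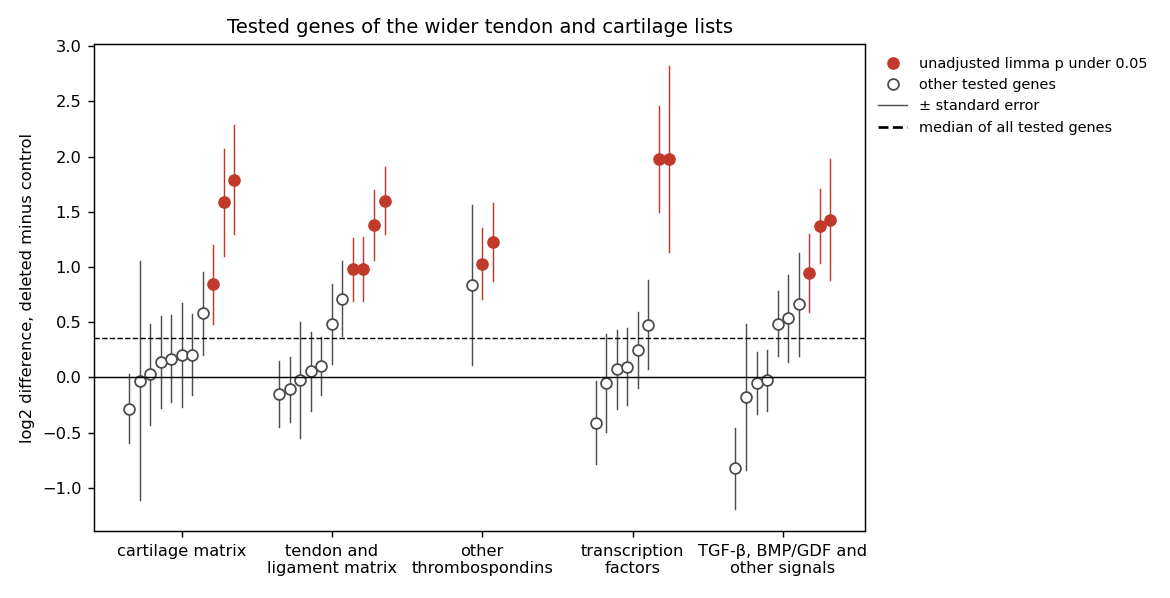
Log2 difference between the groups (y axis) with its standard error for the 43 tested genes of the 5 wider lists (x axis). Filled points passed an unadjusted limma p under 0.05, each of these 14 was higher, and none passed after adjustment; the dashed line is the median of all tested genes, 0.355.

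Marker genes of fibroblasts and of other cells were summed per library in the linear unit. The 8 fibroblast markers summed to between 6390 and 9060 in controls, against between 10800 and 12200 in the libraries labelled Hsp47-deleted, a ratio of means of 1.54, and 1.38 without *Postn*. Most of the sum was *Dcn*, at 5090 to 7400 in controls and 7750 to 8640 in the others. Of the 8 markers 3 were higher without overlap (*Dcn*, *Postn* and *Tcf21*), beside 18.3% of all tested genes, and *Pdgfra*, *Col1a1*, *Col3a1*, *Ddr2* and *Thy1* overlapped. *Postn*, whose locus carries the Cre, was at 57.3, 56.9 and 68.5 in controls 3, 4 and 2. It was at 1190, 1450 and 1320 in the libraries labelled Hsp47-deleted 1, 2 and 3. Of the 8 markers 1 had an adjusted limma p under 0.05, beside 0.232% of all tested genes called higher and 0.0132% called lower. The sum of 9 chondrocyte markers ranged from 9.93 to 20.8 in controls, against 17.2 to 22.3 in those labelled Hsp47-deleted. Of these 9 markers 3 passed the filter. Higher without overlap were 2 of the 9, *Col11a2* and *Matn3*, the latter below the filter, beside 18.3% of all tested genes. The sum of the 8 leukocyte markers did not overlap (37.9 to 86.6 against 95.8 to 124.0). Of the single markers 2 were higher without overlap, *Cd14* and *Adgre1*, the latter below the filter, beside 18.3% of all tested genes. *Cd68* and *Itgam* were highest in control replicate 4 and *Lyz2* in control replicate 2, and *Ptprc*, their defining gene, was listed at 0 in every library. The 8 cardiomyocyte markers ranged from 43.3 to 250 and from 172.0 to 284.0, the 8 endothelial markers from 120.0 to 307.0 and from 226.0 to 355.0, and the 8 mural markers from 169.0 to 294.0 and from 129.0 to 194.0. The 8 Schwann cell markers ranged from 9.33 to 17.2 in controls and from 16.7 to 22.7 in the others. Higher without overlap were 2 cardiomyocyte markers (*Myh6* and *Ttn*), 0 endothelial, 1 mural and 1 Schwann cell marker, and 1 mural marker was lower. The shares of all tested genes were 18.3% higher and 1.5% lower. The 8 mesothelial markers summed to at most 11.3, and the 6 erythroid markers ranged from 20.4 to 857.0 and from 218.0 to 476.0. The sums of 7 of the 9 lists were higher in control replicate 2 than in the other controls, the chondrocyte and mural lists excepted. Among the 10 members, control replicate 2 was the highest control at 6, and it was the lowest control at *Tnmd* and *Thbs4*. The part of fibroblast content, other cells or sequencing run in the differences of the 10 members was not tested.

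**Figure D4:**
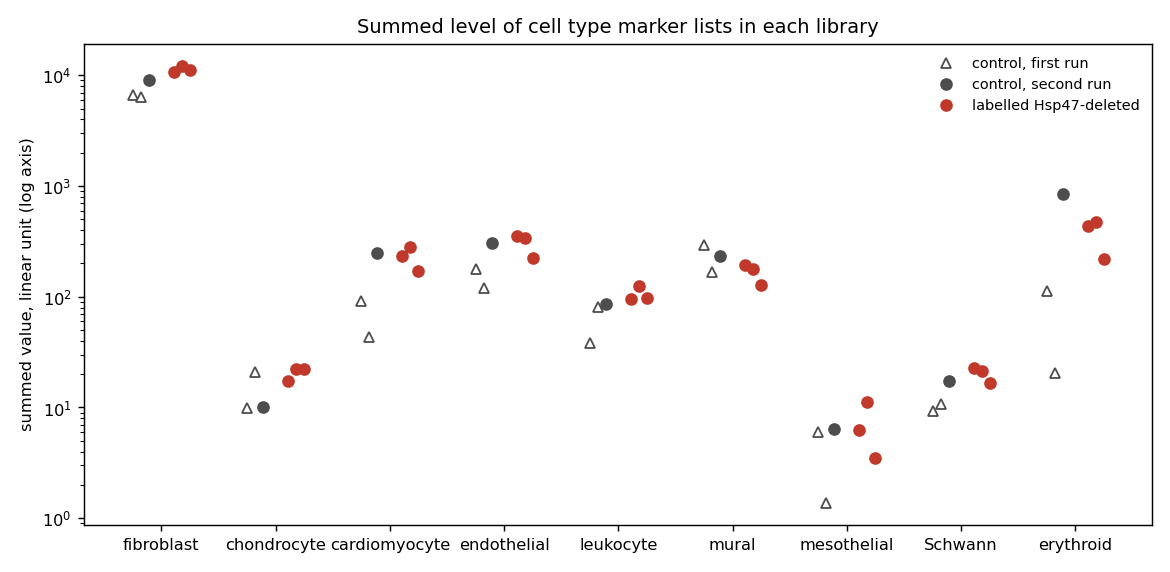
Summed linear values of 9 marker lists (x axis) in each library (y axis, log scale). Triangles are controls of the first run and filled points libraries of the second run; the fibroblast and leukocyte sums do not overlap between the groups, and the other 7 do.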

How the data were processed

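RNA was measured in 6 libraries, 3 control and 3 labelled Hsp47-deleted. Total RNA of sorted cells was amplified (Ovation RNA-Seq System v2), made into Nextera XT libraries and sequenced on a HiSeq2500. The submitters' processing notes name kallisto and mm10, and the study's methods name AltAnalyze. Their versions are not given in the sources used here. The deposited values are log2(value + 1) per gene, and the authors do not name the linear unit, so depth and counting error are unknown. The table's columns of means, fold changes and p-values were not used.

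The 15109 genes that averaged 1 or more on the linear scale were tested and 13878 were left out. The test was that of limma (version 3.58.1, under R version 4.3.3; lmFit, then eBayes with a trend, no covariate, Benjamini-Hochberg adjustment over all genes tested, two-sided, threshold 0.05). The smallest two-sided p of an exact permutation test of 3 against 3 libraries is 0.1, so none was used. The fit was tested on simulated data. Members and lists were chosen with earlier results of these data known, and members got no test. Genes named were the 10 members, the targeted gene, genes overlapping or enclosing a member, the 3 nearest profiles of 4 members, and per wider list the genes with an adjusted p under 0.05 or else the 2 with the smallest p. Markers of the cell type lists were named too, and other exceptions are marked. Marker sums add linear values. For 5 listed genes the older symbol in the table was matched by Ensembl ID. Positions are from GENCODE M21 on GRCm38, the assembly of mm10, and promoters from RefSeq. No member had a transcript with at least 95% identity over at least 80% of its length elsewhere. Alternatives were pseudocounts of 0.1 and 5, no filter and a filter at 5, median centring, quantile normalization, no trend, robust fitting, run as a covariate, the second run alone, the replicate number as a block, and leaving out each library.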

Additional observations from a re-analysis of the deposited data

How the results depend on the processing

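The number of genes called over all tested was 37 (35 higher, 2 lower). It was 16 with a pseudocount of 0.1, 18 with libraries centred on their medians, 17 with quantile normalization and from 8 to 2768 when 1 library was left out, the highest without control replicate 2, where run and label coincide, and from 8 to 19 without any other library. With sequencing run as a covariate 18 were higher and 32 lower. The other tendon and cartilage genes called were 0 under every alternative run except those leaving out a library, which gave 0 to 11, the 11 without control replicate 2. The median log2 difference of the 10 members, 1.93, was 1.65 with a pseudocount of 5 and 1.51 after centring, which moved the median of all tested genes from 0.355 to -0.060. It was 1.88 to 1.97 when 1 library was left out. Of 129 alternatives of single members 100 stayed within the replicate spread, 23 moved further in the same direction or towards 0 and 6 changed sign, all at *Mkx* (main value 0.0031). The run covariate and the second run alone gave the same difference for each member, since both rest on control replicate 2. These values enter the 129 under both names. *Mkx* was -0.0002 with a pseudocount of 5, -0.41 after centring, -0.062 with the replicate block and from -0.063 to 0.086 when 1 library was left out.

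Replicate numbers 2 and 3 occur in both groups, and deviations of same-numbered libraries from their group means correlated at 0.156 and 0.228. With only 2 pairs the numbers are not taken to pair the libraries. With the replicate number as a block the difference rests on replicates 2 and 3 alone, since numbers 1 and 4 each occur in a single group. In that fit, with fewer libraries bearing on the difference, 0 genes were called, and the median of the members was 1.91. The log2 difference of *Scx* was then 0.43 in place of 1.13. The absence of counts means that counting error could not be set beside the lowest values, those of *Mkx* and of the controls for *Cilp2*.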

Other observations

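*Prg4*, the gene for the joint lubricant lubricin, was among the most variable of the wider cartilage genes. It was at 2109, 3682 and 241.3 in the linear unit in control replicates 3, 4 and 2, and at 535.9, 895.9 and 3684 in Hsp47-deleted replicates 1, 2 and 3. The groups overlapped, although control replicate 2 lay below every library labelled Hsp47-deleted. The log2 difference was -0.03 against all controls and 2.32 against control replicate 2 alone. *Tgfb2*, which encodes a TGF-β ligand, followed a like order, at 65.7, 91.8 and 25.2 in those controls and at 21.9, 43.4 and 109.8 in the libraries labelled Hsp47-deleted, highest in replicate 3. Both genes were singled out after their values were seen.

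*Cilp2* and *Comp* lie on chromosome 8 with 26 annotated genes between them, of which 19 were tested. At 9 of the 19 the groups did not overlap, always with the libraries labelled Hsp47-deleted above (18.3% of all tested genes), and the median log2 difference was 0.79 (0.355 over all tested genes), with a range from -0.14 to 1.92. None of the 19 had an adjusted limma p under 0.05, and 8 had an unadjusted limma p under 0.05, beside 14.5% of all tested genes higher and 0.755% lower. The interval was chosen after the differences of its end genes were known, and no test of the interval was made.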
